A study of Mus musculus with 30 samples.

Results

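The 10 genes described here write, copy, erase and protect DNA methylation in mouse embryonic stem cells (mESCs): *Dnmt1*, *Dnmt3a*, *Dnmt3b*, *Dnmt3l*, *Uhrf1*, *Uhrf2*, *Tet1*, *Tet2*, *Zfp57* and *Trim28*. They were chosen by name, found by their Ensembl identifiers in a bulk RNA-seq table of 55421 genes and matched in GENCODE M21, and all 10 were measured and passed the filter on low counts. None lies on the X chromosome: *Dnmt1* is on chromosome 9, *Dnmt3a* on 12, *Dnmt3b* on 2, *Dnmt3l* and *Tet1* on 10, *Uhrf1* and *Zfp57* on 17, *Uhrf2* on 19, *Tet2* on 3 and *Trim28* on 7. The study asked how loss of an X chromosome, or of a large piece of it, changes gene expression in female hybrid mESCs that carry a 129/Sv (*Mus*) and a Cast/Ei (*Cast*) chromosome set. The 30 libraries fell into 17 groups. XX wild type, XX Rnf12+/-, XCastOMus and XMusOCast had 2 libraries each; the labels write the XO lines as XCastO129 and X129OCast. A further 13 lines carried a heterozygous X deletion (A, B, AB, C, C-G, D, E, F, H, I, I-TEL, J or K) on top of the heterozygous *Rnf12* deletion, with 1 library each for A, B, AB and C-G and 2 for each of the others. *Rnf12* (*Rlim*) encodes an X-linked ubiquitin ligase and its deleted copy was on the *Mus* X, so XMusOCast cells kept only the deleted copy, at 3.53 TPM (counts per exon length, scaled to the same total in each library) in both libraries, against 193 to 211 TPM in XX wild type and 71.2 to 79.7 TPM in XX Rnf12+/- and XCastOMus. The XO lines were clones that lost an X during targeting, AB, C-G and I-TEL were clones with larger losses than targeted, and I-TEL and J came from a second Rnf12+/- founder line. Cells were grown in serum and LIF on mouse fibroblast feeders, which were depleted by pre-plating before lysis.

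DNA methylation in mammals is laid down on new sites by DNMT3A and DNMT3B, which the catalytically inactive DNMT3L assists, and is copied onto the new strand after replication by DNMT1, which UHRF1 recruits to hemimethylated sites. TET1 and TET2 oxidise methylated cytosine and so start its removal. ZFP57 binds methylated imprinting control regions and brings in TRIM28 (KAP1), which recruits histone methylation there and protects the imprint during early development. Female mESCs with both X chromosomes active are known for lower DNA methylation than XY or XO cells, but no DNA methylation was measured here, so all values below are RNA levels.

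Promoter sequences are shown for *Dnmt3a*, *Dnmt3b* and *Tet1*, because these were the 3 genes whose XO libraries all lay above the other 26 libraries. RefSeq (GRCm38.p6) lists 19 start sites for the 10 genes, and each sequence below runs from 250 bases before a start to 50 bases after it, 5′ to 3′ on the gene's own strand, with GC boxes (GGGCGG on either strand) and E-boxes (CACGTG) in capitals.
*Dnmt3a*, upstream start, chr12:3806730-3807029, plus strand: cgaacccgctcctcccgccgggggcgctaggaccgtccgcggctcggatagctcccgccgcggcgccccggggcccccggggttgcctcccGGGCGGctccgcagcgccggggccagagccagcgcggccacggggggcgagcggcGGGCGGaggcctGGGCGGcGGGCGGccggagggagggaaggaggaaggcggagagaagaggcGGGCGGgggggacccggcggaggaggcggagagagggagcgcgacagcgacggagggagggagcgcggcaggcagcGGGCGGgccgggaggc
*Dnmt3a*, internal start, chr12:3891494-3891793, plus strand: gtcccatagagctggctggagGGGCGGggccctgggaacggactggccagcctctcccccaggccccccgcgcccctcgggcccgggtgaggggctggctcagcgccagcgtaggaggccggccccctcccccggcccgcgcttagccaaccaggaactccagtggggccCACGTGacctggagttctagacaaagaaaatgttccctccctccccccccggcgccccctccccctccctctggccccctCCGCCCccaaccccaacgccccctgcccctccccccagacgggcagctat
*Dnmt3b*, chr2:153649199-153649498, plus strand: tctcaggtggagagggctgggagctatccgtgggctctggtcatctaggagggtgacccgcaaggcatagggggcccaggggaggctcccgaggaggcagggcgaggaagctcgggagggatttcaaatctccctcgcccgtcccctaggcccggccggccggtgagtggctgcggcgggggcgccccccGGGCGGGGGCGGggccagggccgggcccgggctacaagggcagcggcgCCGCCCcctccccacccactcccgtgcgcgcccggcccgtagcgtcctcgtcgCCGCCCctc
*Tet1*, chr10:62887275-62887574, minus strand: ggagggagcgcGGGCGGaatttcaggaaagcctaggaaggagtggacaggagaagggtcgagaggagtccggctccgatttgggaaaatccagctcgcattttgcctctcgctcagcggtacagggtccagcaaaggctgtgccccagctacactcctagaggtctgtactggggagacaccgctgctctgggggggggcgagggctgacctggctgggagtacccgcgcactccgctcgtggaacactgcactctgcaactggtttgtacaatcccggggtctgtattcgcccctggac
The upstream *Dnmt3a* window held 6 GC boxes and 46 CpG dinucleotides, the internal *Dnmt3a* window 2 GC boxes, 1 E-box and 18 CpG, the *Dnmt3b* window 4 GC boxes and 30 CpG, and the *Tet1* window 1 GC box and 17 CpG. Over all 32851 windows of the same length, 35.7% held a GC box and 7.15% an E-box, and the median was 7 CpG with quartiles of 3 and 20. A match describes the letters of the window and not a bound site. A further *Dnmt3a* window, chr12:3806910-3807209 with 7 GC boxes and 47 CpG, overlaps the upstream window and is not shown. The gene counts do not separate the *Dnmt3a* start sites, so the changes below cannot be assigned to any of them. GENCODE M21 places *Tet1* at chr10:62804570-62908996, so the *Tet1* window shown lies inside the annotated gene. Changes of *Tet1* cannot be assigned to that start either.

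Total counts were 20375194 to 21181405 in the 6 libraries of deletion E and both XX groups, 14998265 to 16494893 in the 4 XO libraries and 8816184 to 10680026 in the 20 libraries of the other 12 deletion lines, and the library prefix in the labels separates the same 3 sets. The XO libraries were also the only ones sequenced as single reads, so an XO difference cannot be told apart from a difference of library set or read type. Deletion E was therefore compared with XX Rnf12+/-, and the other 12 lines with each other. The study describes its replicates as independent clones, but the labels name no clone or culture for the XX and XO libraries, and where they share one their p-values measure the spread between libraries, which may be technical. In bulk RNA, fewer cells of a type and less RNA per cell cannot be told apart. The summed TPM of 9 feeder fibroblast markers was 98.2 to 225 in XO, 103 to 329 in XX, 229 to 346 in deletion E and 73.9 to 276 in the 20 other libraries. The summed TPM of 8 embryonic stem cell markers was 4730 to 7212 over the 30 libraries, with none at 0.

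XO cells had more *Dnmt3a* and *Dnmt3b*, somewhat more *Dnmt1* and *Tet1*, and less *Uhrf2* RNA than XX cells. *Tet2* was lower against both XX lines together but not against XX wild type alone (0.03 log2, edgeR adjusted p = 0.855). *Uhrf1* changed by a small amount, and *Dnmt3l* and the imprint guards *Zfp57* and *Trim28* did not pass the test. Of the 10 genes, 7 changed (edgeR quasi-likelihood test, Benjamini-Hochberg adjusted p under 0.05 over 18316 genes, 4 XO against 4 XX libraries), 5 higher and 2 lower. Over all genes tested 55.2% changed, 25.7% higher and 29.5% lower, so a changed gene was common in this comparison. The libraries of the 2 groups did not overlap for 5 of the 10 genes, against 39.0% of all genes. Against the other 26 libraries together, all 4 XO libraries were above for 3 of the 10, against 7.44% of all genes that were above in this way.

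**Figure D1:**
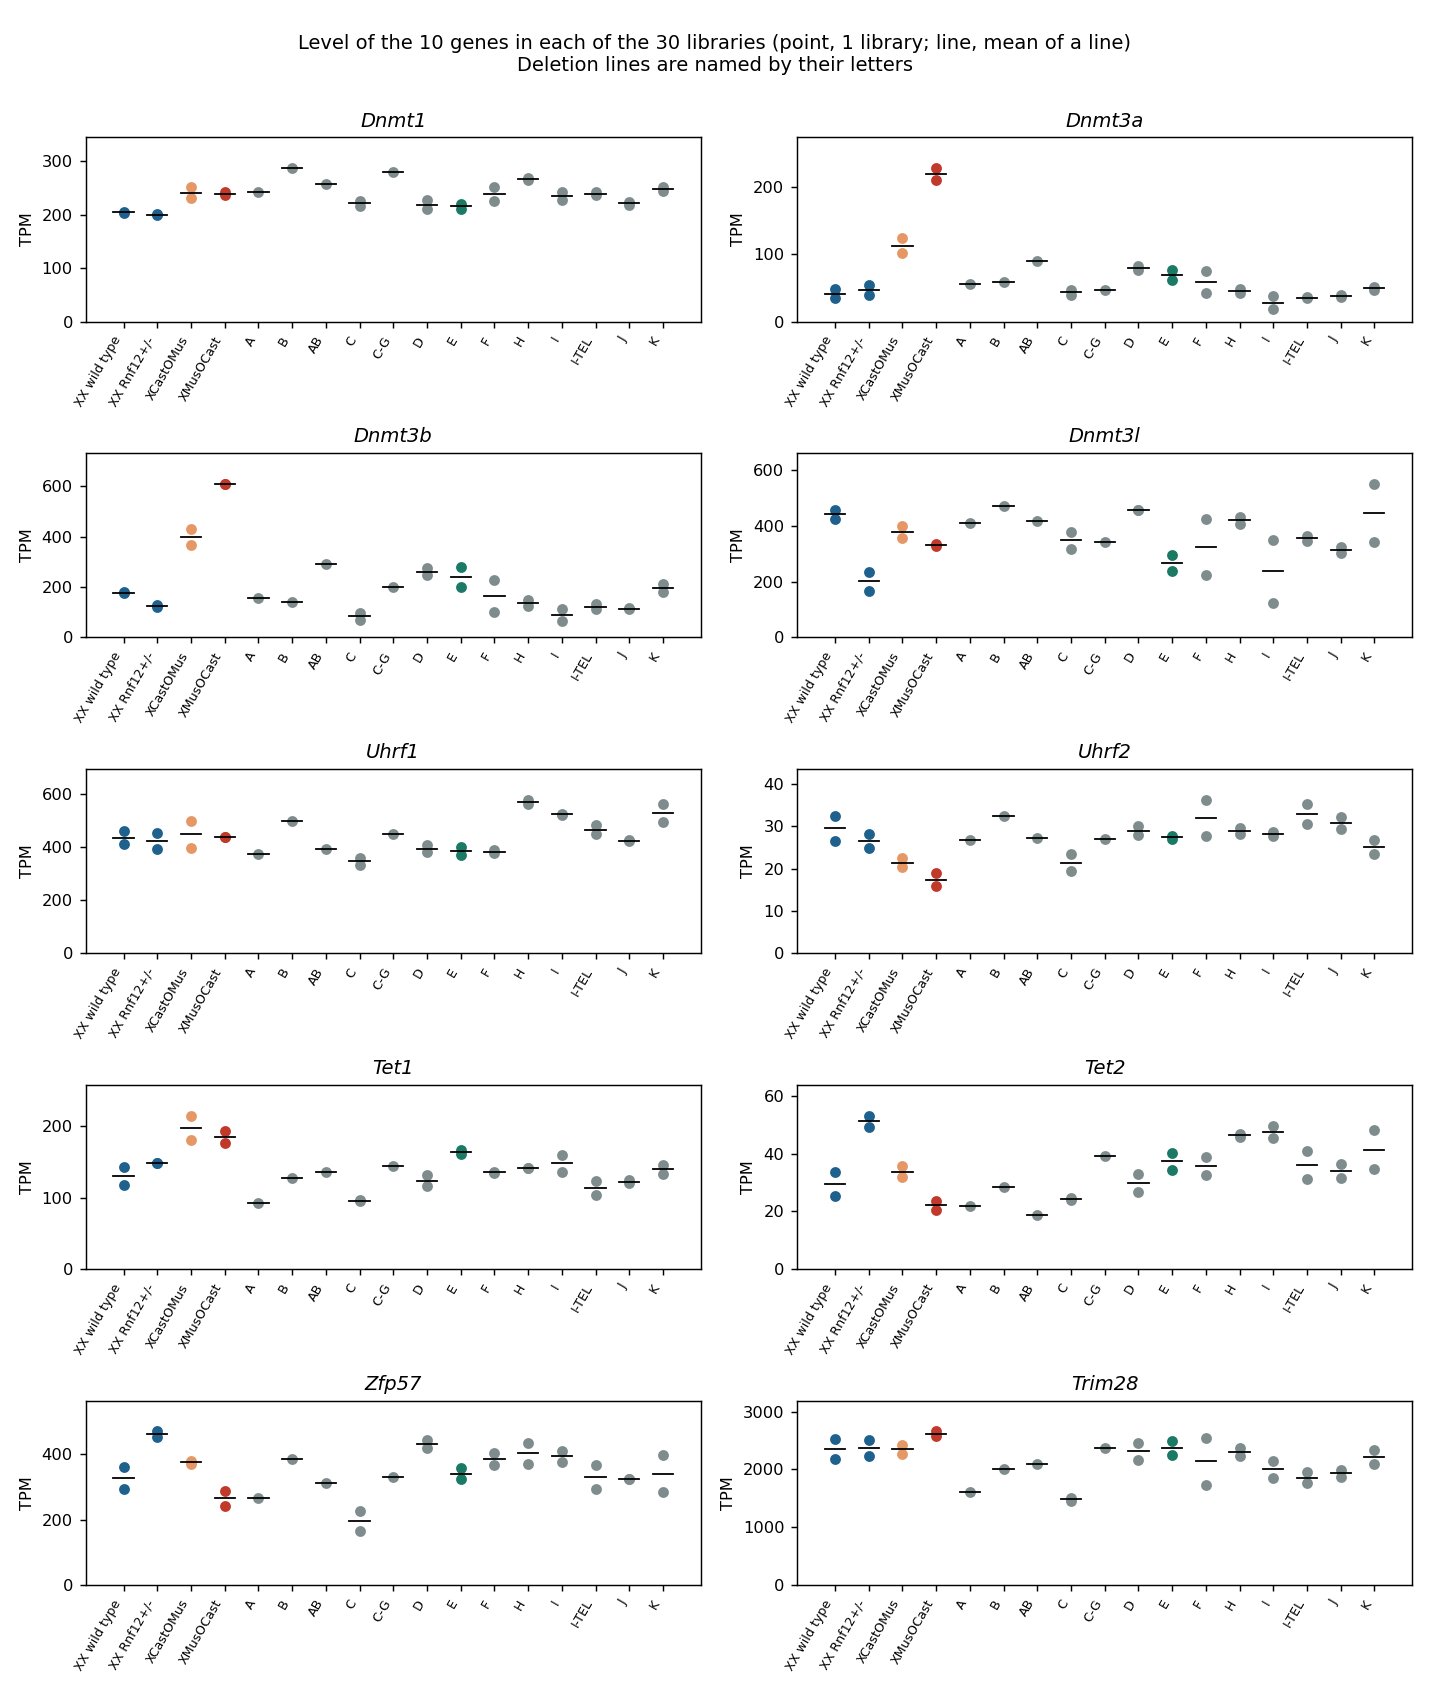
TPM of each of the 10 genes (y axis, each panel from 0) in the 17 groups (x axis), with a point for each library and a line at the group mean. The XO libraries of *Dnmt3a* (102 to 228 TPM) and *Dnmt3b* (366 to 609 TPM) stood above the highest other library (90.7 and 292 TPM, both deletion AB).

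*Dnmt3a*, a de novo methyltransferase, was at 124 and 102 TPM in XCastOMus and 228 and 211 TPM in XMusOCast. It was at 48.4 and 34.7 TPM in XX wild type and 54.6 and 39.0 TPM in XX Rnf12+/-, and ranged from 18.3 through a median of 46.8 to 90.7 TPM in the 20 libraries of the 12 deletion lines. All 4 XO libraries were thus above every other library, and the XMusOCast pair was above the XCastOMus pair. The log2 difference of XO from XX was 1.97 ± 0.18 (SE, 3.93-fold, edgeR adjusted p = 2.74e-08). It was 2.07 against XX wild type alone and 1.83 against the 12 deletion lines.

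*Dnmt3b*, the more abundant de novo methyltransferase in these cells, was at 366 and 430 TPM in XCastOMus and at 609 TPM in both XMusOCast libraries. The XX libraries had 176 and 180 TPM in wild type and 130 and 122 TPM in Rnf12+/-, and the 20 libraries of the 12 deletion lines 64.2 to 292 TPM with a median of 136. The XO libraries were again above all others, and XMusOCast above XCastOMus. The log2 difference of XO from XX was 1.85 ± 0.19 (3.61-fold, edgeR adjusted p = 1.20e-07). In TPM, *Dnmt3b* stood at 2.67 to 4.2 times *Dnmt3a* in the XO libraries and 2.37 to 5.19 times in the XX libraries, so the balance of both genes overlapped between the groups.

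*Dnmt1*, the maintenance methyltransferase, moved less. It was at 231 and 251 TPM in XCastOMus and 237 and 242 TPM in XMusOCast, against 199 to 205 TPM in the 4 XX libraries, which it did not overlap. The difference was 0.38 ± 0.047 log2 (1.30-fold, edgeR adjusted p = 9.92e-07). The 12 deletion lines lay at 210 to 287 TPM with a median of 242, around the XO values, and against them the XO difference was 0.15 log2 (adjusted p = 0.00172). *Dnmt3b* RNA per *Dnmt1* RNA, as a ratio of TPM, was 1.58 to 2.57 in XO, 0.605 to 0.885 in XX and 0.281 to 1.3 over the 26 other libraries, so this ratio did not overlap.

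*Dnmt3l*, the cofactor of the de novo enzymes, was at 398 and 356 TPM in XCastOMus and 334 and 329 TPM in XMusOCast. XX wild type had 426 and 456 TPM and XX Rnf12+/- 168 and 235 TPM, so the XO libraries lay between the XX lines. Against all 4 XX libraries the difference was 0.38 ± 0.22 log2 (edgeR adjusted p = 0.151), and it passed when only the groups compared were fitted (adjusted p = 0.0219) or without the filter on low counts (1.55e-05). Against XX Rnf12+/- it was 1.00 in XCastOMus (adjusted p = 0.0183) and 0.86 in XMusOCast (adjusted p = 0.0310), and against XX wild type, -0.17 (adjusted p = 0.625). The call thus depended on the fit and on which XX line served as reference, and without XX Rnf12+/- replicate 1 both calls were lost (adjusted p = 0.137 and 0.195), as was that of XCastOMus without its replicate 1 (0.0851) and that of XMusOCast without any of its libraries (0.106 and 0.0843).

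*Uhrf1*, which recruits DNMT1, was at 399 and 501 TPM in XCastOMus and 439 and 438 TPM in XMusOCast, within the XX range of 393 to 460 TPM apart from 1 library. The XO difference of 0.18 ± 0.07 log2 passed the test (edgeR adjusted p = 0.0320) but was lost in 9 of 18 alternatives. Its paralogue *Uhrf2*, which binds hemimethylated DNA without replacing UHRF1, was at 22.5 and 20.3 TPM in XCastOMus and 15.8 and 18.9 TPM in XMusOCast. XX libraries held 24.9 to 32.5 TPM, all above the XO libraries. The difference was -0.40 ± 0.092 log2 (0.756-fold, edgeR adjusted p = 0.00100), kept in all 18 alternatives. The TPM of *Uhrf1* was 17.8 to 27.8 times that of *Uhrf2* in XO and 12.7 to 17.3 times in XX, with no overlap. Over the 26 other libraries it was 10.8 to 23.9 times, which overlapped XO.

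*Tet1*, the more abundant of the 2 erasers, was at 181 and 215 TPM in XCastOMus and 176 and 194 TPM in XMusOCast. XX libraries held 117 to 149 TPM, deletion E 167 and 161 TPM, and the 12 deletion lines 92.8 to 160 TPM with a median of 132, all below the XO libraries. The XO difference from XX was 0.60 ± 0.072 log2 (1.51-fold, edgeR adjusted p = 7.60e-07). *Tet2* went the other way: 35.9 and 31.8 TPM in XCastOMus and 20.5 and 23.6 TPM in XMusOCast, against 33.7 and 25.4 TPM in XX wild type and 49.2 and 53.3 TPM in XX Rnf12+/-. The XO libraries overlapped those of wild type and were below those of Rnf12+/-. The difference was -0.38 ± 0.11 log2 (edgeR adjusted p = 0.00729), and it was 0.03 (adjusted p = 0.855) against XX wild type and -0.07 (adjusted p = 0.519) against the 12 deletion lines. *Tet1* stood at 5.05 to 8.6 times *Tet2* in TPM in XO and 2.78 to 4.59 times in XX, without overlap. Over the 26 other libraries it was 2.78 to 7.28 times, which overlapped XO.

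*Zfp57*, the zinc finger protein that reads methylated imprinting control regions, was at 372 and 379 TPM in XCastOMus, 287 and 243 TPM in XMusOCast, 360 and 295 TPM in XX wild type and 453 and 471 TPM in XX Rnf12+/-. Rnf12+/- was highest and XMusOCast lowest, and neither overlapped another of these 4 groups. The XO difference from XX was -0.17 ± 0.11 log2 (edgeR adjusted p = 0.205, and 0.0192 without the filter). *Trim28*, its corepressor, was the most abundant of the 10 genes, at 2264 to 2659 TPM in XO and 2179 to 2519 TPM in XX, which overlapped (0.21 ± 0.094 log2, adjusted p = 0.0708, 0.0290 in a fit of only these groups and 0.00959 without the filter). The 12 deletion lines held 1452 to 2547 TPM of *Trim28* with a median of 2046, and against them XO was 0.48 log2 higher (adjusted p = 8.61e-06). Against these 12 lines 7 of the 10 genes changed, against 60.8% of all genes, and against XX wild type 5, against 49.2%.

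**Figure D2:**
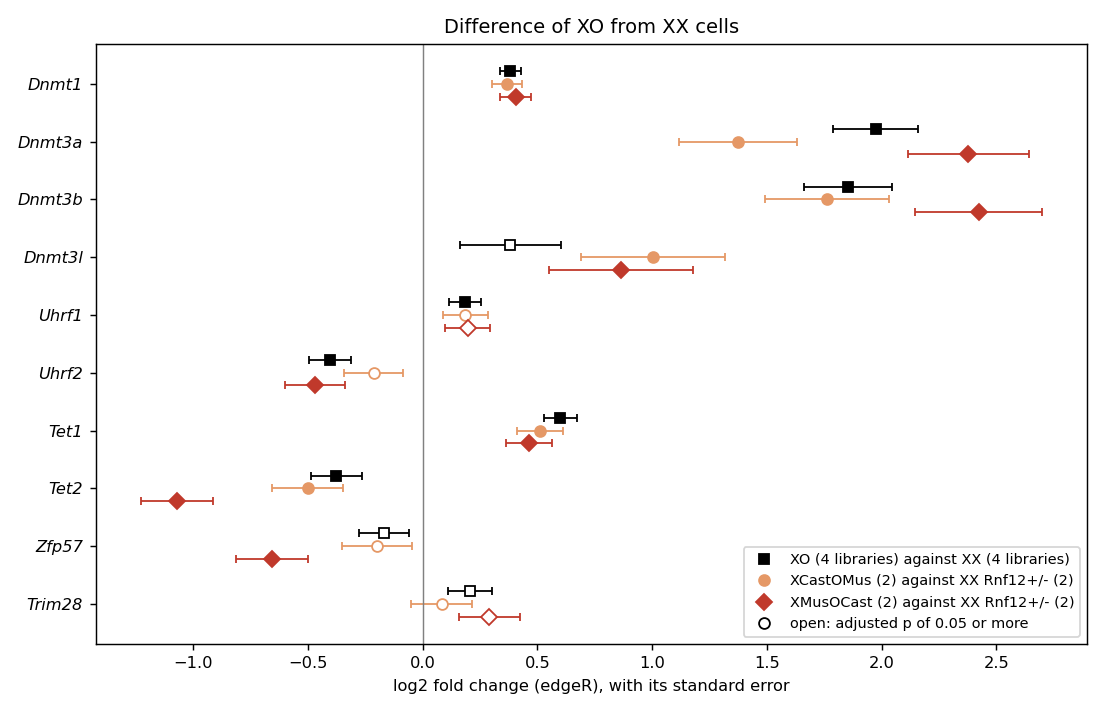
Log2 fold change (x axis, edgeR, bars are the standard error) of the 10 genes (y axis) in XO against XX and in each XO line against XX Rnf12+/-, with filled symbols where the adjusted p was under 0.05. *Dnmt3a* (1.37 and 2.38) and *Dnmt3b* (1.76 and 2.42) rose in both XO lines.

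Each XO line was also set against XX Rnf12+/-, and these comparisons share the 2 Rnf12+/- libraries. XCastOMus differed in 6 of the 10 genes, against 34.7% of all genes, with *Dnmt1*, *Dnmt3a*, *Dnmt3b*, *Dnmt3l* and *Tet1* higher (16.2% of all genes) and *Tet2* lower (18.5%). XMusOCast differed in 8 of the 10, against 45.1% of all genes, 21.4% higher and 23.8% lower. It had the same 5 genes higher and *Tet2* (-1.07), *Zfp57* (-0.66) and *Uhrf2* (-0.47 log2) lower. For XCastOMus the last 3 values were -0.50, -0.20 and -0.21 log2, of which only *Tet2* passed the test. The *Dnmt1* call of XCastOMus was lost when only the groups compared were fitted (adjusted p = 0.0695). The *Tet2* call of XCastOMus was lost without XX Rnf12+/- replicate 2 (adjusted p = 0.0872) or XCastOMus replicate 2 (0.105), and the *Uhrf2* call of XMusOCast without XX Rnf12+/- replicate 2 (0.0665) or XMusOCast replicate 1 (0.0822).

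The XO lines themselves, XMusOCast without and XCastOMus with an intact *Rnf12* copy, differed in 2 of the 10 genes, against 5.83% of all genes. *Dnmt3a* was 1.00 ± 0.25 log2 higher in XMusOCast (2.00-fold, edgeR adjusted p = 0.0255) and *Tet2* 0.57 lower (log2 -0.57 ± 0.16, 0.674-fold, adjusted p = 0.0386). *Dnmt3b* did not pass, at 0.66 ± 0.26 log2 (edgeR adjusted p = 0.149). Its libraries did not overlap in TPM, but neither did those of *Dnmt3l*, *Uhrf2*, *Zfp57* and *Trim28*, which did not pass. The share of all genes separated in this way was not computed. Both calls were lost when the fit held only these 4 libraries (adjusted p = 0.0502 for *Dnmt3a* and 0.119 for *Tet2*) and when any XMusOCast library was left out, with adjusted p of 0.146 and 0.0998 for *Dnmt3a* and 0.250 and 0.115 for *Tet2*. *Dnmt3a* was also lost without XCastOMus replicate 2 (adjusted p = 0.131) and *Tet2* without replicate 1 (0.155). Which X was retained, the *Rnf12* state and the clone differ together here and cannot be told apart.

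XX Rnf12+/- differed from XX wild type in 1 of the 10 genes, against 2.75% of all genes. *Tet2*, at 49.2 and 53.3 TPM against 33.7 and 25.4 TPM, was 0.82 ± 0.16 log2 higher (1.76-fold, edgeR adjusted p = 0.00530), and the groups did not overlap. *Dnmt3l*, at 168 and 235 TPM against 426 and 456 TPM, was -1.10 ± 0.32 log2 apart (edgeR adjusted p = 0.0700), and *Zfp57* 0.52 ± 0.15 (adjusted p = 0.0828), again with no overlap between libraries. Libraries of *Dnmt1*, *Dnmt3b* and *Tet1* did not overlap in TPM either, and the share of all genes separated in this way was not computed. The *Tet2* call was lost without XX wild type replicate 2 (adjusted p = 0.128). Libraries with the same number deviated together in these groups (r = 0.714 over 11401 genes), and with the number as a block *Tet2* stayed the 1 gene called (adjusted p = 0.00621).

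Deletion E changed none of the 10 genes against XX Rnf12+/- (edgeR), against 0.584% of all genes. At an unadjusted p under 0.05 there were 3 genes, a threshold for which the share of all genes was not computed. DESeq2 called 0 of the 10 genes and 187 of all genes. *Dnmt3b* was at 201 and 278 TPM against 130 and 122 TPM in XX Rnf12+/- (0.87 ± 0.27 log2, adjusted p = 0.184), *Tet2* at 40.3 and 34.4 against 49.2 and 53.3 TPM (-0.51, adjusted p = 0.182) and *Zfp57* at 358 and 324 against 453 and 471 TPM (-0.49, adjusted p = 0.193). The libraries of deletion E did not overlap those of Rnf12+/- in TPM for any of these 3, nor for *Dnmt1*, *Dnmt3a*, *Dnmt3l* and *Tet1*. The share of all genes separated in this way was not computed.

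Among the other 12 deletion lines, 9 of the 10 genes differed (edgeR F test over the 12 lines), against 44.9% of all genes. *Dnmt3l* was the exception (adjusted p = 0.316), and its clones lay far apart in deletion I (125 and 348 TPM) and deletion F (426 and 223 TPM). Adjusted p was lowest for *Tet2* (0.000135), *Uhrf1* (0.000178), *Tet1* (0.000566) and *Dnmt3b* (0.000650). Line means of *Dnmt3b* spanned 3.46-fold, of *Dnmt3a* 3.26-fold and of *Tet2* 2.55-fold, while those of *Dnmt1* spanned 1.31-fold. Set against the other 11 lines in turn, 25 of 120 pairs of gene and line passed (20.8%), 10 higher and 15 lower, against 8.44% of all such pairs over all genes (4.70% higher, 3.73% lower).

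**Figure D3:**
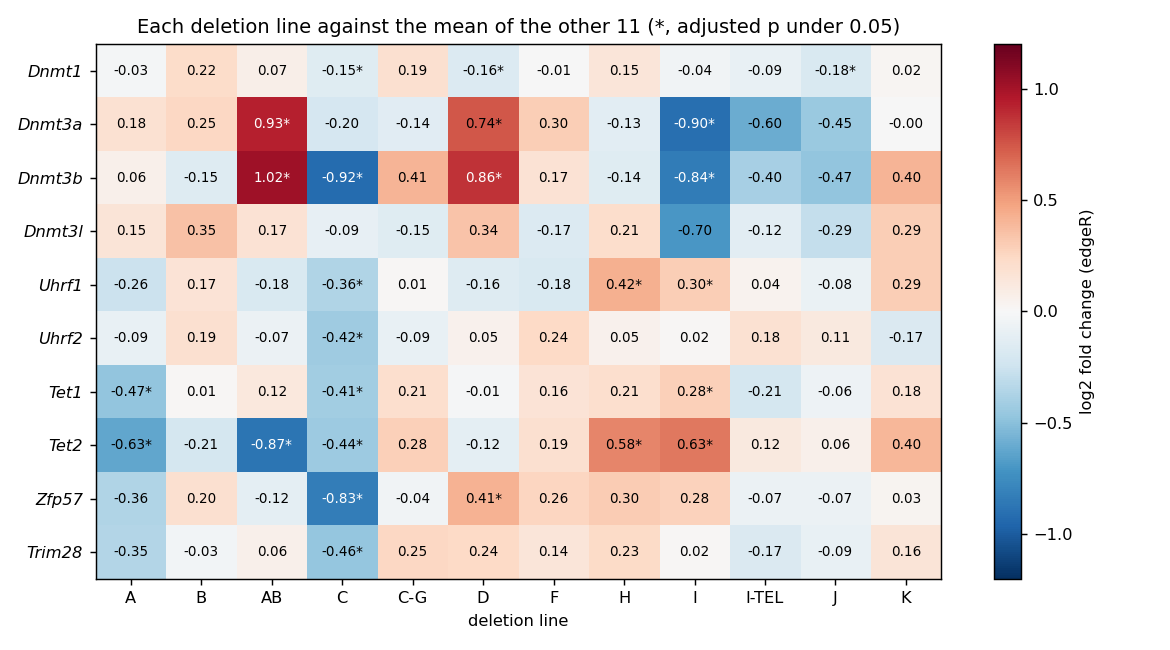
Log2 fold change (colour and printed value, edgeR) of the 10 genes (rows) in each of 12 deletion lines (columns) against the mean of the other 11, with an asterisk where the adjusted p was under 0.05. Deletion C had 8 asterisks, all for lower levels.

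Deletion C was lower in 8 of the 10 genes, against 30.9% of all genes changed and 13.7% lower in that line. *Zfp57* was at 165 and 226 TPM there, where the other 18 libraries had 267 TPM or more, and *Trim28* at 1512 and 1452 TPM, where the others had 1610 TPM or more. Both imprint guards were thus lowest in the deletion C clones. The differences were -0.83 ± 0.13 log2 for *Zfp57* (edgeR adjusted p = 4.68e-05) and -0.46 ± 0.10 for *Trim28* (adjusted p = 0.00197), and with *Tet1* (-0.41) they were kept in all 29 alternatives. *Dnmt3b*, at 98.2 and 70.4 TPM, was 0.92 log2 lower (log2 -0.92, adjusted p = 0.00308), a call lost without deletion C replicate 2 (adjusted p = 0.115) and against XX Rnf12+/- (-0.62 log2, adjusted p = 0.0905). The other 4 were *Uhrf2* (-0.42), *Tet2* (-0.44), *Uhrf1* (-0.36) and *Dnmt1* (-0.15 log2), and *Dnmt3a* and *Dnmt3l* did not pass. Without deletion C replicate 1, *Uhrf1*, *Tet2* and *Dnmt1* lost their calls (adjusted p = 0.0615, 0.127 and 0.350), and without replicate 2, *Uhrf2*, *Tet2* and *Dnmt1* did (0.155, 0.0784 and 0.0735).

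*Dnmt3a* and *Dnmt3b* were called in the same direction in lines AB, D and I. Deletion AB had 90.7 and 292 TPM of them, the highest of the 20 libraries (0.93 ± 0.24 log2, adjusted p = 0.0460, and 1.02 ± 0.25, adjusted p = 0.0355; 3 genes called, against 1.99% of all genes). With 1 library, AB is assumed to vary as the other lines do, and its *Dnmt3a* and *Dnmt3b* calls were lost in 16 and 7 of 28 alternatives. Deletion D held 82.1 and 76.3 TPM of *Dnmt3a* and 274 and 248 TPM of *Dnmt3b* (0.74 and 0.86 log2, adjusted p = 0.0119 and 0.00620; 4 genes called, against 11.2%). Without D clone 1 their adjusted p was 0.186 and 0.141, and without clone 2, 0.0793 and 0.0506. Deletion I held 18.3 and 37.3 TPM of *Dnmt3a* and 64.2 and 113 TPM of *Dnmt3b* (-0.90 and -0.84 log2, adjusted p = 0.0129 and 0.0242; 5 genes called, against 7.35%). Clone 1 of deletion I was the lowest library for both genes and for *Dnmt3l*, and without it the values were -0.50 and -0.51 log2 (adjusted p = 0.417 and 0.490). Against XX Rnf12+/- they were -0.79 and -0.54 log2 and did not pass (adjusted p = 0.0603 and 0.208).

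**Figure D4:**
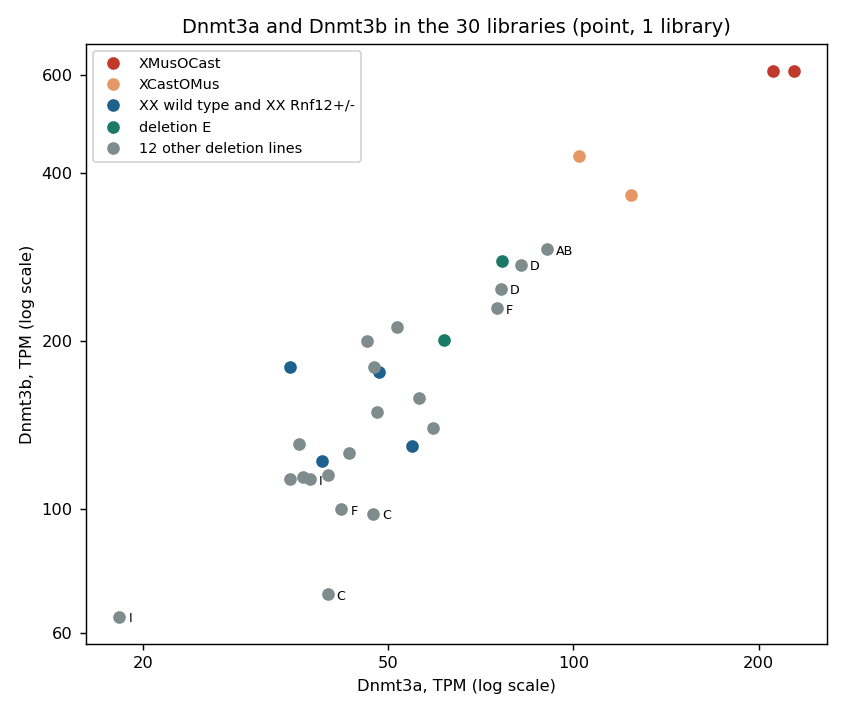
*Dnmt3b* against *Dnmt3a* (TPM, both axes on a log scale) in the 30 libraries, coloured by kind of line, with the clones of deletions AB, C, D, F and I marked by letter. The 4 XO libraries lie at the upper right, and the clones of F and of I lie apart.

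Over the means of the 12 lines, log2 CPM (counts scaled to library size) of *Dnmt3a* and *Dnmt3b* had a Pearson r of 0.83 (Spearman 0.75), *Dnmt3a* and *Dnmt3l* 0.75, *Dnmt3a* and *Tet2* -0.64, *Uhrf1* and *Tet2* 0.76, *Tet1* and *Trim28* 0.88, and *Zfp57* and *Trim28* 0.81. These lines share a library set and mostly a founder, and deletion C enters each value. The 2 clones of deletion F differed by 1.24 log2 in *Dnmt3b* and 0.98 in *Dnmt3l*, and 0.941% and 2.37% of 11908 expressed genes were at least that far apart there. Those of deletion I differed by -1.42 log2 in *Dnmt3l* (1.02% of genes were as far apart), clone 1 being lower. In TPM these clones were 2.78-fold apart in *Dnmt3l*, where line means spanned 2-fold, while in *Dnmt3b* the F clones were 2.28-fold apart, less than the span of the line means.

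The erasers also varied among the lines. *Tet2* was at 18.7 TPM in AB, 21.8 TPM in A and 23.9 and 24.7 TPM in C, the 4 lowest of the 20 libraries, and at 46.9 and 46.0 TPM in H and 45.6 and 49.5 TPM in I. It was lower in AB (-0.87, adjusted p = 0.0131), A (-0.63, adjusted p = 0.0442) and C, and higher in H (0.58, adjusted p = 0.00487) and I (0.63 log2, adjusted p = 0.00274). The call in A was lost in 8 of 28 alternatives (adjusted p up to 0.0592), and A too has 1 library, assumed to vary as the other lines do. *Tet1* was lower in A (92.8 TPM, -0.47 log2, adjusted p = 0.0184; 2 genes called, against 4.92% of all genes) and C and higher in I (0.28, adjusted p = 0.0242). *Uhrf1* was higher in H, at 580 and 563 TPM (0.42, adjusted p = 0.00171; 2 genes called, against 4.76%), and in I (0.30, adjusted p = 0.0169). Against XX Rnf12+/-, whose libraries have another prefix, *Tet2* in H and I was 0.18 and 0.14 log2 lower (log2 -0.18 and -0.14) and *Tet1* in I 0.04 lower (-0.04), so the direction of these 3 rested on the reference. Left with 1 H clone, *Uhrf1* (adjusted p = 0.0842 and 0.0551) and *Tet2* (0.114 and 0.122) lost their calls, and without I clone 1, *Uhrf1* (0.318), *Tet1* (0.127) and *Tet2* (0.0939) did. Without I clone 2, *Tet1* did (0.277), and against XX Rnf12+/- *Uhrf1* in I did (0.0833).

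Small changes filled the remaining calls. *Dnmt1* was lower in C, D (-0.16 log2, adjusted p = 0.0423) and J (-0.18, adjusted p = 0.0145; 1 gene called, against 18.6%), and *Zfp57* higher in D (0.41, adjusted p = 0.0220). The direction of these calls rested on the reference. Against XX Rnf12+/-, whose libraries have another prefix, *Dnmt1* was 0.106 in C, 0.092 in D and 0.071 log2 in J, and *Zfp57* -0.134 in D. Against I-TEL, the other line of its founder, *Dnmt1* in J was at -0.088 log2 (edgeR adjusted p = 0.962). The *Dnmt1* call in D was lost in 16 of 29 alternatives, and with 1 clone left its adjusted p was 0.404 and 0.133 in D and 0.180 and 0.126 in J, while that of *Zfp57* in D was 0.170 and 0.167. Lines B, C-G, F, I-TEL and K had no call, against 0.344%, 1.16%, 3.91%, 14.9% and 1.26% of all genes. At an unadjusted p under 0.05 they had 1, 1, 4, 2 and 4 of the 10 genes (edgeR). The share of all genes at that threshold was not computed, so these counts cannot be set against the shares above. DESeq2 called 28 pairs over the 12 lines in place of 25, and its share over all genes was not computed.

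*Dnmt3a* lies at chr12:3806007-3914443 (GRCm38, plus strand), and its neighbourhood set XX wild type and the lines of the second Rnf12+/- founder (I-TEL and J) apart from the rest. The 22 expressed genes within 5 Mb were a median 0.48 log2 higher in XX Rnf12+/- than in XX wild type, and 0.49 and 0.47 lower in I-TEL and J (log2 -0.49 and -0.47) than in the other lines. Their summed *Mus* share was 56.2% in XX wild type, 55.2% in I-TEL and 55.8% in J, against 71.4% in XX Rnf12+/- and 66.5% to 70.8% in the other 13 groups. The same split ran from 0 to 70 Mb of chromosome 12, where bins of 10 Mb had medians of 0.41 to 0.59 log2 in XX Rnf12+/- against wild type. Beyond 80 Mb the genes went the other way, with Rnf12+/- 0.30 to 0.48 log2 below wild type (bin medians of -0.30 to -0.48).

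*Dnmt3a* itself followed its neighbours in part. It was 0.57 log2 lower in I-TEL and J together than in the other lines (log2 -0.57 ± 0.15, edgeR adjusted p = 0.00646), close to the neighbours' shift. In that comparison 3 genes were called, all lower, against 31.5% of all genes changed and 14.3% lower. Besides *Dnmt3a* these were *Dnmt1* on chromosome 9 and *Dnmt3b* on chromosome 2, which lie outside this region. In XX Rnf12+/- against wild type the difference of *Dnmt3a* was 0.19, below that of 20 of the 22 neighbours. In XO against XX it was 1.99 against a neighbour median of 0.16, in AB 0.95 against 0.10, in D 0.76 against 0.01 and in I -0.98 against 0.13, on the scale of log2 CPM means. Neighbours at or above *Dnmt3a* numbered 0 of 22 in XO and in AB, 1 in D and 22 in I. The copy number of this region was not measured, and its part in the *Dnmt3a* levels was not tested.

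**Figure D5:**
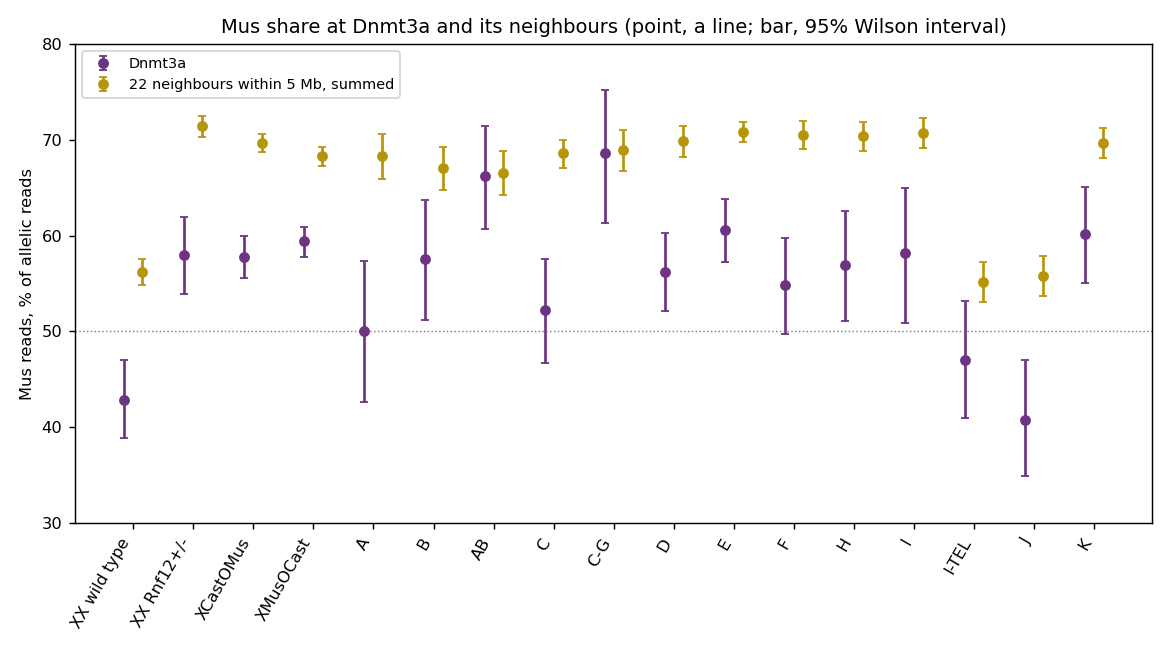
*Mus* share of allelic reads (y axis, percent, shown from 30 to 80) for *Dnmt3a* and for its 22 neighbours summed, in the 17 groups (x axis), with 95% Wilson intervals for counting error. XX wild type, I-TEL and J lie lowest in the neighbours, at 55.2% to 56.2%.

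By allele, *Dnmt3a* had a *Mus* share of 42.9% in XX wild type (95% Wilson interval 38.9% to 47.0%), 40.8% in J (34.9% to 47.0%) and 47.0% in I-TEL (41.0% to 53.2%). The share was 58.0% in XX Rnf12+/- (53.9% to 61.9%), 57.8% in XCastOMus and 59.4% in XMusOCast. XX wild type, J and I-TEL thus had the lowest shares of the 17 groups, as they did in the neighbours. Deletions A (50.0%, 42.6% to 57.4%) and C (52.2%, 46.7% to 57.6%) lay within the interval of I-TEL, so the reads of this gene did not resolve I-TEL from them. The XO lines, with *Dnmt3a* RNA 1.37 (XCastOMus) and 2.38 log2 (XMusOCast) above that of XX Rnf12+/-, had a share near that of XX Rnf12+/-. *Dnmt3b* was near balance, at 50.6% *Mus* in XO (49.8% to 51.3%) and 47.3% in XX (45.7% to 48.9%). Its rise in XO was therefore carried by both alleles, from 17507 allelic reads in XO and 3595 in XX. These read numbers do not measure the rise, since 21.92% to 22.03% of counts were allelic in the XO libraries. In the library set of XX and deletion E it was 12.41% to 12.53%.

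*Tet1* was at a *Mus* share of 52.7% in XO and 54.9% in XX, and at 65.7% in deletion C (63.1% to 68.2%, 1307 reads), with 64.2% and 67.2% in the 2 clones. The 51 neighbours of *Tet1* within 5 Mb had 52.6% in deletion C, as in the other groups (51.3% to 55.0%). *Tet2* had 41.8% in deletion C (37.1% to 46.6%) and 49.3% to 63.0% in the other groups, while its 31 neighbours had 37.9% in C and 37.0% to 49.4% in the others. In deletion C, then, the share of *Tet1* reads from *Cast* and of *Tet2* reads from *Mus* was the lowest of all 17 groups. *Trim28* was at 49.7% *Mus* over all 30 libraries, and *Zfp57* at 68.9% (66.6% to 71.1%) on only 1605 allelic reads. Intervals cover counting error only.

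Other genes of methylation were taken from lists, with counts to be read against the 55.2% of all genes changed in XO. Of 6 further writers and cofactors 3 changed: *Hells*, a remodeller needed for methylation of repeats, was lower (-0.70 log2, 131 to 142 TPM in XO and 198 to 290 TPM in XX), and *Cdca7* (0.23) and *Usp7* (0.25) were higher. Of 6 erasers and base repair genes 4 changed, with *Tdg*, the glycosylase that removes oxidised methylcytosine, at 23.5 to 29 TPM in XO and 17 to 18.2 TPM in XX (0.75 log2), *Parp1* (0.42) and *Mbd4* (0.19) higher, and *Tet3* lower (-0.34). Of 7 heterochromatin partners of the imprint guards 6 were higher, led by *Cbx3* (1.08 log2, 50.8 to 58.5 TPM against 26.8 to 29.8 TPM), which encodes HP1 gamma, and including *Setdb1* (0.31), the histone methyltransferase that TRIM28 recruits. Of 6 readers of methylated DNA 5 changed, 2 higher and 3 lower, among them *Mbd3* (0.52).

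Of 5 antagonists of methylation 2 changed, with *Kdm2b*, which binds unmethylated CpG islands, higher (0.69 log2, adjusted p = 2.17e-05) and *Prdm14* lower. *Prdm14*, which represses the de novo methyltransferases in naive cells, was at 32.7 and 34.9 TPM in XCastOMus and at 20 and 20.2 TPM in XMusOCast, against 77.1 to 105 TPM in XX (-1.71 log2, adjusted p = 1.72e-12). XMusOCast was below XCastOMus (-0.70, adjusted p = 0.00221). Deletion C had 43.2 and 45.3 TPM of it, between the XO and the XX libraries. A relation of *Prdm14* to the levels of the 10 genes was not tested. Of 5 MAPK genes tied to methylation in XX cells 4 changed, among them the X-linked *Klhl13* (-2.33) and *Dusp9* (-0.67 log2), which were lower. Against XX Rnf12+/-, *Klhl13* was at -3.69 in XMusOCast and -0.33 in XCastOMus (adjusted p = 0.363), and *Dusp9*, an ERK phosphatase, at -0.20 in XMusOCast (adjusted p = 0.611) and -1.02 in XCastOMus, so each passed in 1 XO line.

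Markers of cell state moved too. Of 8 embryonic stem cell markers 6 changed in XO, 5 lower, with *Nanog* (-1.21), *Tfcp2l1* (-1.11) and *Sox2* (-0.89 log2), and 1 higher. Of 7 formative and primed markers 4 were higher, with *Lef1* (1.37) and *Pou3f1* (0.55 log2), and none lower. Their summed TPM was 273 to 534 in XO and 282 to 353 in XX. AB (447) and D (480 and 590), high in *Dnmt3a* and *Dnmt3b*, were above the XX range, and I (156 and 241) and 1 XO library were below it. Other lines left this range too: C-G (439) and deletion E (411 and 493) were above it, and B (274) and I-TEL (201 and 225) below it. The clones of F (206 and 431) lay on either side. In none of C-G, E, B, I-TEL and F was *Dnmt3a* or *Dnmt3b* called. The lower clone of C (209) was also below the range. Of 9 feeder markers 2 were higher and 2 lower, of 7 primitive endoderm markers 1 was lower, and of 6 tested 2-cell-like markers 2 were lower. What cell state adds to the levels of the 10 genes was not tested.

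For the 4 genes with the lowest adjusted p among the lines, genes with the most similar line means over the 12 lines were looked up (9083 to 9449 genes ranked by Pearson r). They were *Nfu1* (0.953) and *Tenm4* (0.937) for *Tet2*, and *Rnf220* (0.907), *Atg2b* (0.905) and *Arhgap23* (0.889) for *Uhrf1*. *Shq1* (0.917), *Zranb2* (0.916) and *Xpo4* (0.913) were nearest to *Tet1*, and *Fzd2* (0.962), *Hmg20b* (0.940) and *Mtch1* (0.932) to *Dnmt3b*. With 12 points, and genes picked from so many, such values describe these lines only.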

How the data were processed

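Bulk RNA-seq of 30 mESC libraries was analysed. The submitters' processing notes name Trim Galore 0.6.7, HISAT2 2.2.1, SAMtools 1.10, HTSeq 0.12.4 and mm10. Per the study's methods, reads were aligned to a genome masked at SNPs, split by allele and counted per gene on exons with strand (by featureCounts in the methods, where the notes name HTSeq). The deposited table holds raw counts of all, *Mus* and *Cast* reads, and TPM and shares were computed here from these counts. Of 55421 genes, 55240 matched GENCODE M21 and 18316 with at least 10 counts in 2 libraries were tested. Tests used edgeR 4.0.16 (quasi-likelihood, R 4.3.3) on all 30 libraries, 1 term per line, TMM of autosomal genes and Benjamini-Hochberg adjustment over all genes at 0.05. DESeq2 1.42.0 was the other tool. Log2 CPM used a prior count of 2. Neighbours were genes of TPM over 5 within 5 Mb. Promoters came from RefSeq. All 10 genes are named, list genes by their rank or a log2 beyond 1. Some genes that this rule would name are not reported here. The genes and lists were chosen with earlier results of these data known. The scripts were tested on simulated counts. Alternatives in tool, scaling, filter, reference, window and libraries are given with the limits.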

Additional observations from a re-analysis of the deposited data

Results flagged for a closer look

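The XO lines differed in 2 of the 10 genes, against 5.83% of all genes, by the edgeR test of the lines against each other (2 libraries each). *Dnmt3a* had a log2 difference of 1.003 between XMusOCast and XCastOMus (adjusted p = 0.0255), with both XMusOCast libraries above both XCastOMus libraries. *Tet2* had a log2 difference of -0.569 (adjusted p = 0.0386), with both XMusOCast libraries below. Neither call survived the removal of an XMusOCast library or a fit of only these groups (edgeR adjusted p = 0.0502 for *Dnmt3a* and 0.119 for *Tet2*). Leaving out XCastOMus replicate 2 also ended the call of *Dnmt3a*, and leaving out replicate 1 that of *Tet2*. Which X was retained, the *Rnf12* state and the clone differ together and cannot be told apart.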

How the results depend on the processing

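Over 2036 alternative values, the counts of changed genes moved by over 1.5 times in 18 of 136, and single gene values reversed in 28. With a log2 difference beyond 1 also required, the counts were 2 in XO against XX and 1 between the XO lines. Against XX Rnf12+/- they were 3 in XCastOMus and 3 in XMusOCast. They were 0 in XX Rnf12+/- against wild type and 1 pair among the deletion lines. No share of all genes at that threshold is given beside these counts. Without a filter on low counts they were 4 between the XO lines, 4 in deletion E, 4 in XX Rnf12+/- and 46 pairs, and the share of all pairs was not computed for that setting. In fits of only the groups compared they were 0 between the XO lines and 0 in XX Rnf12+/- against wild type. DESeq2 gave 2 for XX Rnf12+/- against wild type. For that DESeq2 count, and for most of the ranges that follow, no share of all genes is given. Leaving out 1 library at a time gave 6 to 7 genes in XO, 5 to 6 in XCastOMus, 6 to 8 in XMusOCast, 0 to 1 between the XO lines, 0 in deletion E, 0 to 1 in XX Rnf12+/-, 7 to 9 among the lines and 18 to 33 pairs. Among the lines *Uhrf2* was lost in 13 of 27 alternatives and *Trim28* without deletion C replicate 2 (adjusted p = 0.0532), and *Dnmt3l* was gained without deletion I replicate 2 (0.0105).

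Counts over all genes moved as well: with only the groups compared, 1987 in place of 6361 (XCastOMus against XX Rnf12+/-), 31 in place of 1067 (between the XO lines, 194 and 207 without either XMusOCast library), 0 in place of 107 (deletion E) and 1 in place of 504 (XX Rnf12+/- against wild type). Deletion E ranged from 34 to 518 as libraries were left out, with 187 by DESeq2 and 656 without the filter, and XX Rnf12+/- from 167, with 940 without the filter.

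Replicate numbers were not taken to pair the libraries, since the labels do not tie them: over 78 pairs of groups, deviations of same-numbered libraries correlated with a median r of 0.02 (-0.36 to 0.714, the highest for XX wild type and XX Rnf12+/-), and 21 exceeded 0.1. With replicate number as a block the counts were 7, 6, 8, 2, 0, 1, 9 and 23, and *Dnmt3a* and *Dnmt3b* lost their calls in deletion AB (adjusted p = 0.0636 and 0.0515). In the same order, 10115, 6365, 8250, 1096, 95, 515 and 8262 of all 18316 genes tested were called with the block. The share of all pairs is not given for the 23.

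Values that turned were small in one of the fits, and the cause was not tested. With XX wild type as reference, XO gave *Dnmt3l* -0.170, *Tet2* 0.034 and *Zfp57* 0.095, and with the 12 lines *Zfp57* 0.087. Leaving out 1 library at a time gave, between the XO lines, *Dnmt1* -0.013 to 0.084, *Uhrf1* -0.139 to 0.168 (-0.002 without XMusOCast replicate 1) and *Tet1* -0.159 to 0.066 (0.012 without XMusOCast replicate 1). In deletion E it gave *Uhrf2* -0.106 to 0.088 (0.032 without E replicate 2, and 0.011 with the TPM filter) and *Trim28* -0.133 to 0.026. In XX Rnf12+/- against wild type it gave *Dnmt1* -0.019 to 0.007, *Dnmt3a* -0.064 to 0.445 (-0.020 without wild type replicate 2), *Uhrf1* -0.127 to 0.089 (0.058 without wild type replicate 1), *Uhrf2* -0.271 to 0.032 and *Trim28* -0.057 to 0.139 (-0.042 without XX Rnf12+/- replicate 1). Against XX Rnf12+/- in place of the other lines, *Dnmt1* was 0.106 in C, 0.092 in D and 0.071 in J, *Zfp57* -0.134 in D, *Tet2* -0.181 in H and -0.139 in I, and *Tet1* -0.040 in I.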
